A study of Mus musculus with 6 samples.

Results

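Genes whose probe was detected in cytokine-induced primordial germ cell-like cells (PGCLCs) but in neither of the other cell groups of the study are described here. They were chosen from measured values. A named probe was taken when its detection p, the share of negative control beads brighter than the probe, was below 0.01 on both cytokine PGCLC arrays and at least 0.01 on the other 4 arrays. Its mean log2 value in cytokine PGCLCs in the authors' value table also had to lie 0.2 or more above the mean of each other group. Of 45281 probes on the array, 181 had this detection pattern, 148 of them carried a gene name, and 85 of those had the difference. After a fixed set of symbols was left out (14 probes of 12 genes, among them Id1, Id2 and Id3), 71 probes of 67 genes remained, of 10057 named probes and 7312 named genes in the value table. The same rule, turned to the other groups, found 118 probes of 111 genes for embryonic stem cells and 72 probes of 70 genes for Nanog PGCLCs.

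The study set PGCLCs made by expressing Nanog against PGCLCs made with cytokines and against mouse embryonic stem cells (mESCs), on Illumina BeadChips with 2 arrays per group. All cells were male, of 129 x MF1 background, and carried a Nanog transgene, the cytokine PGCLCs and the mESCs included. The mESCs were kept in N2B27 medium containing 1000 U/ml LIF and 2 inhibitors, 3 µM CHIR99021 against GSK3 and 1 µM PD0325901 against MEK. Both kinds of PGCLC were collected on day 4 after epiblast-like cells had been moved to GK15 medium. Cytokine PGCLCs received 500 ng/ml each of the BMP ligands BMP4 and BMP8A, together with 100 ng/ml SCF, 50 ng/ml of the growth factor EGF and 1000 U/ml LIF. Nanog PGCLCs received doxycycline at 0.7 µg/ml, which switched on the transgene. The labels do not name the clone or promoter of the transgene, do not say whether PGCLCs were sorted, and do not say that replicates came from separate cultures. The p-values below therefore reflect only differences among these 6 arrays, possibly technical ones. In such bulk samples, fewer cells of a type and less RNA per cell cannot be told apart.

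Primordial germ cells are the founders of sperm and eggs and arise in the posterior epiblast under BMP signals, which act through SMAD proteins on genes such as the Id family. The same BMP signals also pattern the neighbouring mesoderm, the allantois and the first blood cells. In the embryo, the migrating germ cells follow the chemokine CXCL12 through its receptor CXCR4 and depend on SCF, the ligand of the receptor KIT.

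The arrays had 8788 to 10028 probes detected, with fewer on the mESC arrays (9220 and 8788) than on the PGCLC arrays (9871 to 10028). Replicates correlated at 0.991 to 0.994 over the probes tested, cytokine with Nanog PGCLCs at 0.971 to 0.972, and mESCs with PGCLCs at 0.924 to 0.926. Of 22 germ cell markers, 11 had a named probe in the authors' value table, and 8, 11 and 11 of these were detected on both arrays of mESCs, cytokine PGCLCs and Nanog PGCLCs. With 2 arrays a group, precision is low throughout.

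The member probes were dim. Their means in cytokine PGCLCs ranged from 8.33 to 9.44 on the log2 scale of the value table with a median of 8.50, and 68 of 71 lay under the median of all named probes, 8.97. Their median levels in mESCs and Nanog PGCLCs were 8.12 and 8.11. The gap between the cytokine mean and the higher of the other means had a median of 0.32 and reached 1.31. It was 1 or more for 2 probes, at least 0.5 for 13 and at least 0.3 for 37. Replicates differed by a median of 0.05 in mESCs, 0.05 in cytokine PGCLCs and 0.06 in Nanog PGCLCs, and by up to 0.29. On all 71 probes both cytokine arrays lay above the other 4, as on 17.6% of all probes tested, which the rule nearly fixes. By limma with Benjamini-Hochberg adjustment over all probes, 71 members were higher in cytokine PGCLCs than in mESCs (27.7% of all probes, and 52.6% in either direction) and 70 were higher than in Nanog PGCLCs (9.72%, and 20.1% in either direction). Since these contrasts chose the members, the counts are a description.

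The members that signal between cells were led by Cxcl12, the chemokine that guides migrating germ cells. Its values in the authors' table were 7.82 and 7.78 for mESCs, then 9.38 and 9.51 for cytokine PGCLCs, then 8.04 and 8.23 for Nanog PGCLCs. Both cytokine arrays stood more than 1 log2 unit above every other array, the widest gap of the set at 1.31. On background-corrected values, with undetected groups raised to the dimmest detected signal, Cxcl12 was at least 3.51-fold higher in cytokine PGCLCs than in mESCs and at least 4.08-fold higher than in Nanog PGCLCs. That floor was higher on the mESC arrays (7.06 and 7.17) than on the Nanog PGCLC arrays (6.91 and 6.88). Bounds over the 2 groups therefore do not rank them. Sct encodes secretin, a peptide hormone of the gut. It read 7.87 and 7.77 for mESCs, then 9.13 and 9.13 for cytokine PGCLCs, then 8.06 and 8.0 for Nanog PGCLCs. The groups were again far apart, with bounds of at least 2.54-fold over mESCs and at least 2.96-fold over Nanog PGCLCs. Wnt5a, a WNT ligand that acts mainly without beta-catenin and is needed for outgrowth of the posterior body, lay much closer to the rule's limit. Its values were 8.04 and 8.12 for mESCs, then 8.40 and 8.33 for cytokine PGCLCs, then 7.98 and 7.96 for Nanog PGCLCs. Igfbpl1, related to the binding proteins of insulin-like growth factors, measured 8.20 and 8.31, 8.57 and 8.70, and 8.21 and 8.21 in the same order of groups. The secreted protein Mia and the imprinted transmembrane protein Dlk1, a relative of the Notch ligands, completed this group near the 0.2 limit.

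The RefSeq promoter windows of Cxcl12 and Sct are shown because these are the 2 members with the widest gaps. Each runs from 250 bases before to 50 bases after the annotated start, 5′ to 3′ on the gene's strand, in build GRCm38.p6. Capitals mark exact matches of the short motifs searched. The Cxcl12 window lies at chr6:117168285-117168584 on the plus strand. Its capitals are the reverse complement of the TCF motif CTTTGAT, 163 bases before the start, and the GC-rich SMAD motif GGCGCC, 123 bases before it. The Sct window lies at chr7:141279084-141279383 on the minus strand and holds GGCGCC, the E-box CAGCTG and the TATA motif TATAAA, the last 28 bases before the start.
Cxcl12: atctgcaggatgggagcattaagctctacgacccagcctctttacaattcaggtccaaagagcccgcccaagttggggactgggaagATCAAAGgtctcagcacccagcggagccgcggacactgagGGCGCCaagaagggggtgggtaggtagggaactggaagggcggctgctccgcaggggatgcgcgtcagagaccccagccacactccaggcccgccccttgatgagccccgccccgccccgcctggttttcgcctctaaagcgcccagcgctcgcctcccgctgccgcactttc
Sct: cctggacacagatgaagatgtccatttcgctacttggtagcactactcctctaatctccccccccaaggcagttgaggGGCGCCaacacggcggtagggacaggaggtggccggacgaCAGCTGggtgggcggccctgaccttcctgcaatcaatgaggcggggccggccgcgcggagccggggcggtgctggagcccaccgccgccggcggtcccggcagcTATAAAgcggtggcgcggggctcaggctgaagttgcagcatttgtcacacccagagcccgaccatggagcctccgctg

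Among members at the cell surface, Flrt3, a leucine-rich repeat protein in cell adhesion and guidance, was the clearest. It read 8.25 and 8.28 for mESCs, then 8.87 and 8.94 for cytokine PGCLCs, then 8.20 and 8.13 for Nanog PGCLCs. Lhfpl2, a multi-span membrane protein, showed both cytokine arrays at 8.84, the mESC arrays at 8.22 and 8.22, and the Nanog arrays at 7.94 and 7.84. Cachd1, related to calcium channel subunits, had 7.87 and 7.81, 8.33 and 8.33, and 7.53 and 7.55 in mESCs, cytokine PGCLCs and Nanog PGCLCs. For these 3 genes the Nanog arrays lay below both mESC arrays. App, the amyloid precursor protein, was ordered the other way, at 7.94 and 7.82 for mESCs, then 8.69 and 8.64 for cytokine PGCLCs, then 8.30 and 8.24 for Nanog PGCLCs. The phospholipid flippase Atp10a had the same order as App, with 7.97 and 7.78, 8.51 and 8.37, and 8.07 and 8.05. Ifnlr1, a receptor chain for interferon lambda, and the membrane protein Tmem92 had smaller gaps, of 0.31 and 0.26.

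Among kinases and other signalling proteins inside the cell, Pip5k1b, a kinase that makes the membrane lipid PIP2, had the widest gap. It was measured at 7.73 and 7.77 for mESCs, then 8.55 and 8.56 for cytokine PGCLCs, then 7.77 and 7.74 for Nanog PGCLCs. The mESC and Nanog PGCLC arrays overlapped here. Lrrk2, a large kinase and GTPase, had 7.92 and 7.91, 8.47 and 8.47, and 8.01 and 7.95. Smaller gaps, of 0.26 to 0.33, were found for Jak3 (the kinase of the common gamma chain of cytokine receptors), Pik3r1 (a regulatory subunit of PI3 kinase), Rgs12 (a regulator of G proteins), Bcl9 (a partner of beta-catenin), Ankrd6 (the WNT regulator Diversin), Wwc2 (a Hippo pathway scaffold), Fgf13 (an intracellular FGF-like protein) and Anxa3 (an annexin).

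The transcription regulators included Tsc22d3, known as GILZ and induced by glucocorticoids, at 7.79 and 7.69 for mESCs, then 8.54 and 8.52 for cytokine PGCLCs, then 7.87 and 8.01 for Nanog PGCLCs. Peg3, an imprinted zinc finger gene, read 7.60 and 7.61 for mESCs, then 8.45 and 8.34 for cytokine PGCLCs, then 7.91 and 7.93 for Nanog PGCLCs, so that the 3 groups formed 3 steps. Grhl3, a factor of surface ectoderm and epidermis, had 8.06 and 8.10, 8.47 and 8.60, and 7.99 and 8.27. The Nanog replicates of Grhl3 lay further apart than those of most members. Tbx4, a T-box factor of the allantois and hindlimb, had 8.12 and 8.07, 8.39 and 8.40, and 8.05 and 8.04, with little spread in any group. Bbx, an HMG-box factor, was a member through 2 probes. The first gave 7.99 and 7.91, 8.42 and 8.49, and 8.13 and 8.10, and the second 8.19 and 8.06, 8.43 and 8.63, and 8.28 and 8.23. A further Bbx probe, not a member, read 8.17 and 8.19, 8.56 and 8.60, and 8.46 and 8.66. It was detected in Nanog PGCLCs too, and its cytokine and Nanog PGCLC arrays overlapped. Mxd4, an antagonist of MYC, sat at the limit, with 8.02 and 8.17, 8.47 and 8.43, and 8.24 and 8.24.

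The windows of Grhl3 and Tbx4 are given because both are transcription factors of BMP-patterned tissues on the lists used. The Grhl3 window, chr4:135573583-135573882 on the minus strand, holds the E-box CACCTG on both sides of the start, 19 bases before it and just after it. The Tbx4 window, chr11:85896515-85896814 on the plus strand, holds CAGCTG 243 bases before the start and a reverse-strand TATAAA 85 bases before it.
Grhl3: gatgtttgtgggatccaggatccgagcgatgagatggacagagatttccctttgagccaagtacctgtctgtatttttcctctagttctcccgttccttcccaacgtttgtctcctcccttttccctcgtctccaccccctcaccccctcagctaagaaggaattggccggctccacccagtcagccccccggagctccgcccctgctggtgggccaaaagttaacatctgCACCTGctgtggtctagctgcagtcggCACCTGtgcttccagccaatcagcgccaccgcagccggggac
Tbx4: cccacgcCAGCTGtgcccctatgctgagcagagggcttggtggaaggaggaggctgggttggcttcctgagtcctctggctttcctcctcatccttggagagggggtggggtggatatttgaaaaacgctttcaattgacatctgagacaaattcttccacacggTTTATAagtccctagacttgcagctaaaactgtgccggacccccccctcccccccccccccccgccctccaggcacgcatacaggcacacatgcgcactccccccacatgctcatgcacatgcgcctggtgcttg

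The chromatin members were Nsd2, Mbd1, Yeats2, Baz2b, Ctr9 and Msl1. Nsd2, a histone H3 lysine methyltransferase, had 8.26 and 8.29 for mESCs, then 8.69 and 8.66 for cytokine PGCLCs, then 8.30 and 8.27 for Nanog PGCLCs. Mbd1, which binds methylated DNA, had 8.08 and 8.09, 8.45 and 8.53, and 8.06 and 8.15, and Yeats2, a histone acyl reader, had 8.09 and 8.07, 8.42 and 8.42, and 8.02 and 8.03. The mESC and Nanog PGCLC arrays overlapped for Nsd2 and Mbd1 but not for Yeats2. Baz2b (a bromodomain protein), Ctr9 (of the PAF elongation complex) and Msl1 (of a histone acetyltransferase complex) had gaps of 0.25, 0.26 and 0.22.

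Several members are known from the germ line. Tdrkh, a Tudor protein of the piRNA pathway, had 7.99 and 7.96 for mESCs, then 8.57 and 8.62 for cytokine PGCLCs, then 7.97 and 8.09 for Nanog PGCLCs. Phf7, a PHD finger protein of male germ cells, had 8.23 and 8.23, 8.79 and 8.52, and 8.20 and 8.29, with 1 cytokine array well above the other. Pramel16, of the PRAME-like family, had 8.12 and 8.12, 8.63 and 8.69, and 7.85 and 8.05. Its relatives Pramel37 (8.03 and 8.08, 8.35 and 8.40, 7.56 and 7.66) and Pramel39 (8.35 and 8.30, 8.65 and 8.56, 8.13 and 8.07) were also members, as was the cancer/testis gene Ct55 (8.37 and 8.37, 8.62 and 8.70, 8.22 and 7.93). In all 4 the Nanog arrays were the lowest. PRAME-like genes are near-identical copies, so a probe may bind several of them and these values are uncertain.

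Metabolic enzymes made up much of the rest. Ephx2, the soluble epoxide hydrolase, read 7.87 and 7.71 for mESCs, then 8.57 and 8.68 for cytokine PGCLCs, then 7.72 and 7.68 for Nanog PGCLCs. Fut10, of the fucosyltransferase family, was a member through 2 probes, at 7.94 and 8.02, 8.62 and 8.76, and 7.81 and 7.94 on one, and 8.0 and 7.98, 8.51 and 8.47, and 7.82 and 7.77 on the other. Both probes of Fut10 gave a gap of 0.5 or more. Adal, an adenosine deaminase-like enzyme, had 8.20 and 8.01, 8.48 and 8.47, and 8.06 and 8.15. The remaining enzymes and redox genes were Mogat2 (triglyceride synthesis), Lhpp (a histidine phosphatase), Aldh5a1 (GABA breakdown), Acaa2 (mitochondrial fatty acid oxidation), Iah1 (an esterase), Prxl2a (peroxiredoxin-like), Noxo1 (an NADPH oxidase organizer) and Secisbp2 (selenoprotein synthesis), with gaps from 0.20 to 0.34.

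Of the genes for structures and organelles, Dnaaf3, which assembles the dynein arms of motile cilia, had 8.14 and 8.07 for mESCs, then 9.01 and 9.12 for cytokine PGCLCs, then 8.09 and 8.0 for Nanog PGCLCs. Its bounds were at least 2.37-fold over mESCs and at least 2.75-fold over Nanog PGCLCs. Thsd4, a matrix protein that binds fibrillin, had 2 member probes of different size. One gave 7.65 and 7.68, 8.56 and 8.60, and 7.80 and 7.59, with a gap of 0.88, and the other 8.19 and 8.29, 8.48 and 8.52, and 8.01 and 8.25, with a gap of 0.26. Lamp2, a lysosome membrane protein, also had 2, at 8.07 and 8.09, 8.48 and 8.51, and 8.19 and 8.07, and at 8.30 and 8.20, 8.63 and 8.56, and 8.23 and 8.27. Further Lamp2 probes, not members, were brighter and detected on all 6 arrays. The brightest read 10.1 and 10.13, 10.45 and 10.41, and 10.39 and 10.32, and the next 9.28 and 9.5, 9.51 and 9.77, and 9.59 and 9.5. Neither passed between cytokine and Nanog PGCLCs (limma adjusted p = 0.528 and 0.627). The cytoskeletal linker Dst, the centrosomal Cep112 and the autophagy protease Atg4d had gaps of 0.24, 0.29 and 0.26. Atg4d was the 1 member not called against Nanog PGCLCs, and its cytokine arrays, 8.34 and 8.63, differed by more than the gap.

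Genes of DNA, RNA and protein turnover were G2e3, a ubiquitin ligase of the cell cycle (8.02 and 7.86, 8.49 and 8.69, 8.22 and 8.17), Prkdc (the DNA repair kinase DNA-PK), Polg (the mitochondrial DNA polymerase), Tsr3 (a ribosomal RNA processing factor) and Usp40 (a deubiquitinase). Gm428 (8.32 and 8.38, 8.79 and 8.71, 8.09 and 8.19), Gm13040 (8.07 and 8.13, 8.45 and 8.43, 7.69 and 7.83), Fam168b and 2510009E07Rik are given without a role. Both Gm genes had the lowest values in Nanog PGCLCs.

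**Figure D1:**
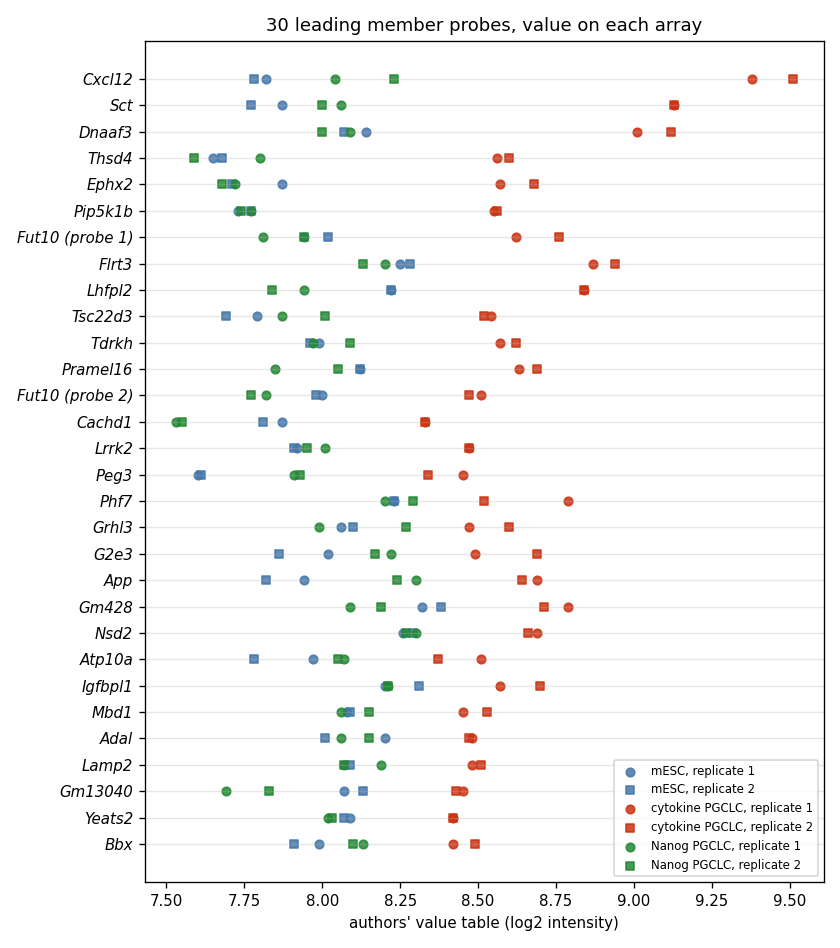
Value on each of the 6 arrays (log2 intensity in the authors' value table, horizontal axis) for the 30 member probes with the largest gap, from Cxcl12 at the top. Colours give the groups and shapes the replicates, and both cytokine PGCLC arrays lie to the right of the other 4 for every probe drawn.

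The plot of array values shows that the set tapers fast. After Cxcl12 and Sct, the gap fell below 1, and most members lie well under 1 log2 unit above groups in which they were called undetected. The members nearest above the size limit were Iah1 (gap 0.203), Mxd4 (0.205) and Acaa2 (0.215). Just outside it were Clip4 (0.196), a second probe of G2e3 (0.191) and Ets1 (0.187). On the side of detection, 23 further named probes had the gap but were detected on 1 other array, 22 of them on a Nanog PGCLC array and 1 on an mESC array. Those closest to the limit were Pars2 and Pdgfrl, each with a detection p of 0.00962 on Nanog PGCLC replicate 1.

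Undetected in the other groups did not mean equally far below the threshold. The lowest detection p on the other 4 arrays had a median of 0.0481 over the members. It was at least 0.05 for 35 probes, at least 0.1 for 17 and at least 0.2 for 7. Cachd1 (0.475), Ephx2 (0.399), Pip5k1b (0.331) and Thsd4 (0.30 on its first probe) lay deepest among the control beads, while Jak3, Polg and Noxo1, at 0.0107 each, lay just past the limit. In cytokine PGCLCs 42 probes had a detection p of 0 on both arrays, meaning that no control bead was brighter. The bounds on fold were small in most cases, with a median of at least 1.31-fold over Nanog PGCLCs, 2 or more for 5 probes. Over mESCs, with their higher floors, the median bound was at least 1.13-fold, 3 probes reached 2, and for 19 no fold can be given because the bound was under 1.

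**Figure D2:**
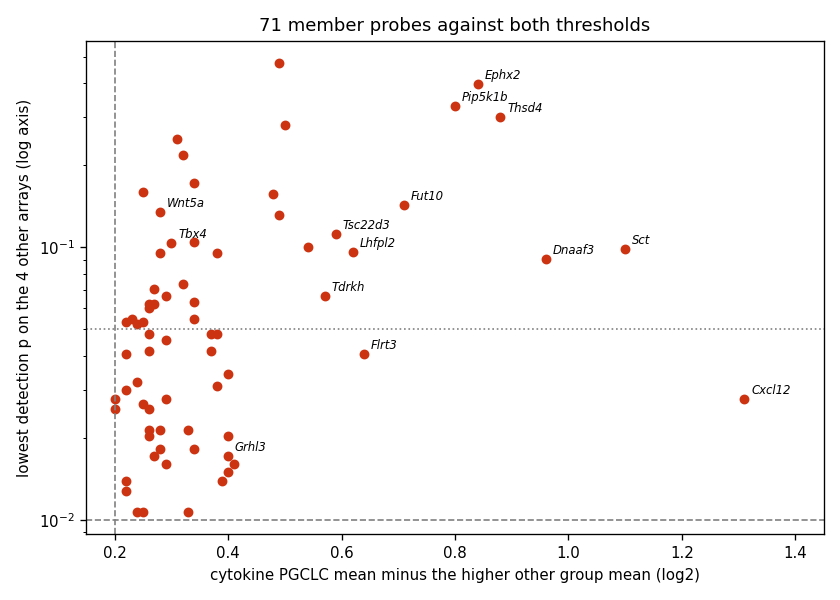
Gap to the higher other group mean (log2, horizontal axis) against the lowest detection p on the 4 other arrays (vertical log axis) for the 71 member probes. Dashed lines mark the 2 limits of the rule, 0.2 and 0.01, and the dotted line a detection p of 0.05, below which 36 members lie.

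The plot of gap against detection p places Cxcl12, the member with the widest gap, at 0.0278, while Ephx2 and Pip5k1b combine a gap of at least 0.8 with a detection p above 0.3.

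Other probes of the same genes showed that the label holds for probes more than for genes. For 24 of the 67 genes the value table listed 31 further named probes, and for 21 genes at least 1 of these was detected outside cytokine PGCLCs. For 14 genes a further probe was detected on all 6 arrays. The listed probes of the remaining 46 genes, 43 of which had no other listed probe, were undetected outside cytokine PGCLCs. The rule had been applied to these further probes too and had not taken them, some by a narrow margin, such as one of G2e3. On 25 of the 31 the cytokine mean was the highest of the 3 groups, and on 12 it was 0.2 or more above both others. Over the 9986 named probes that are not members, these shares were 29.1% and 5.9%, and the values are given as a description, since probes of 1 gene share its RNA.

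Peg3 showed this most plainly. Its further probe read 8.87 and 8.83 for mESCs, then 10.76 and 10.78 for cytokine PGCLCs, then 9.95 and 9.95 for Nanog PGCLCs. The 3 steps were those of the member probe, at levels well above the detection threshold in all groups. Wwc2, read by a dim member probe, had a further probe among the brighter values, at 11.10 and 11.07, 11.87 and 11.86, and 11.23 and 11.36. Further probes of Nsd2 (8.60 and 8.45, 9.61 and 9.72, 9.06 and 9.12), Yeats2 (8.74 and 8.82, 9.66 and 9.46, 9.10 and 9.09) and Aldh5a1 (9.07 and 9.24, 9.69 and 9.78, 9.25 and 9.37) also had both cytokine arrays on top. These genes were thus detected in mESCs and Nanog PGCLCs, with more signal in cytokine PGCLCs on these probes. Another further probe of Nsd2 read 8.38 and 8.28, 8.40 and 8.49, and 8.43 and 8.36, with overlapping cytokine and Nanog PGCLC arrays. For Ct55 the further probe read 8.66 and 8.72 for mESCs, then 8.99 and 8.98 for cytokine PGCLCs, then 7.89 and 7.81 for Nanog PGCLCs, and it was undetected in Nanog PGCLCs alone. Lhpp was similar in order, at 9.04 and 9.09, 9.47 and 9.40, and 8.46 and 8.41, but detected on all arrays. Acaa2, Dst, Iah1, Mbd1 and Tsr3 each had a further probe on which cytokine PGCLCs were not the highest group. The probes of Acaa2 shared similar levels in mESCs and cytokine PGCLCs, for example 9.06 and 9.10 against 8.99 and 9.06, and lower ones in Nanog PGCLCs, 8.81 and 8.72.

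**Figure D3:**
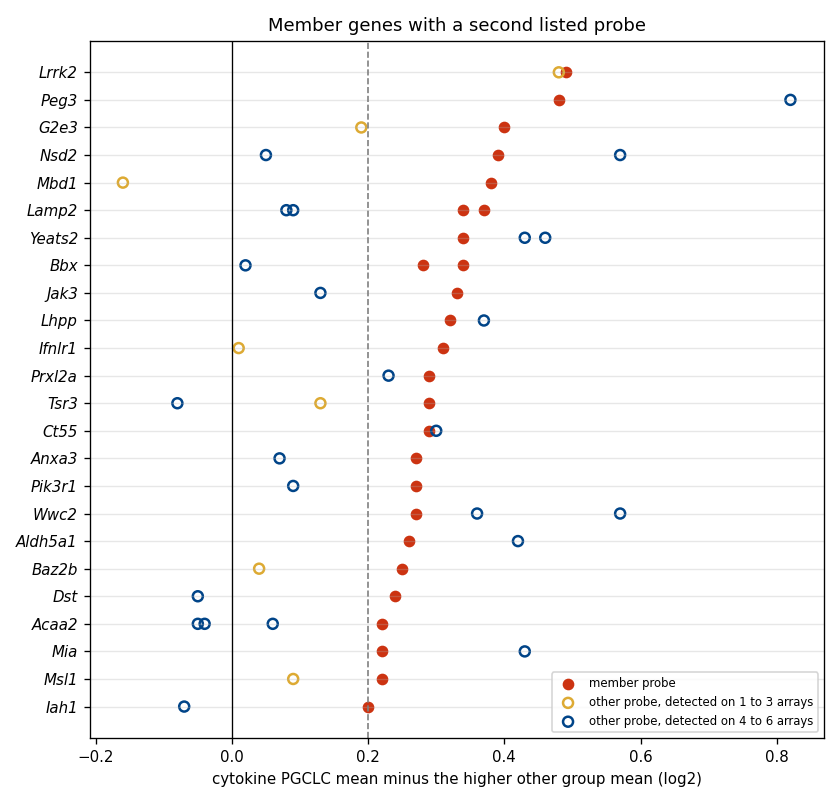
Gap between the cytokine PGCLC mean and the higher other group mean (log2, horizontal axis) for the 24 member genes with a further listed probe. Filled points are member probes and open points the 31 further probes, coloured by the number of arrays that detected them, of which 25 lie at the right of 0.

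The rule did not set Nanog PGCLCs against mESCs, but it held both groups under the detection threshold and below cytokine PGCLCs. The calls between them therefore compare signals under that threshold on all 4 arrays. By limma with Benjamini-Hochberg adjustment over all 10673 probes tested, 24 members were higher in Nanog PGCLCs than in mESCs and 8 were lower, against 26.5% and 25.1% of all probes. The other 39 did not pass, so 32 of 71 were called, against 51.6% of all probes. As a share, 33.8% of the members were higher and 11.3% lower. Of the 110 other probes detected on the cytokine arrays alone, which include unnamed ones and those with a smaller gap, 21.8% were higher and 13.6% lower. The median difference was 0.22 over the members and -0.01 over all probes. The same fit on the authors' value table called 8 members higher and 13 lower, with a median difference of -0.02 over members and -0.02 over all its probes. The split between higher and lower among the members was thus opposite in the 2 versions of the values. None was called in opposite directions, 8 were higher in both fits and 8 lower in both. In the value table both Nanog arrays lay above both mESC arrays for 19 members (37.3% of all probes), below for 23 (39.5%), and overlapped for 29.

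The members higher in Nanog PGCLCs by both fits were Jak3, G2e3, Sct, Iah1, Cxcl12, Peg3, App and Tsc22d3. Since both groups were undetected, levels are given without folds. On the background-corrected log2 scale the mean level of App was 5.69 in mESCs and 6.79 in Nanog PGCLCs (limma adjusted p = 9.9e-05). The esterase gene Iah1 had 5.78 and 6.63 (limma adjusted p = 0.000499), and Sct 5.61 and 6.31 (limma adjusted p = 0.000651). For these genes the Nanog arrays lay between mESCs and cytokine PGCLCs. Cxcl12 had mean levels of 5.57 and 6.52 (limma adjusted p = 0.000758), and Peg3 of 5.38 and 6.10 (limma adjusted p = 0.00083). The first probe of Bbx, at 5.80 and 6.49 (limma adjusted p = 0.00109), did not pass in the value table, where its adjusted p was 0.0556.

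The members lower in Nanog PGCLCs by both fits were Lhpp, Lhfpl2, Wwc2, Gm428, Ct55, Pramel37, Pramel39 and 2510009E07Rik. The phosphatase gene Lhpp had mean levels of 6.50 in mESCs and 5.61 in Nanog PGCLCs (limma adjusted p = 0.000305), and 2510009E07Rik of 6.27 and 5.71 (limma adjusted p = 0.00273). Lhfpl2 had 6.47 and 6.05 (limma adjusted p = 0.00686) and Pramel37 6.03 and 5.57 (limma adjusted p = 0.00696). In this group mESCs, not Nanog PGCLCs, were the closer neighbour of cytokine PGCLCs. Wwc2, at 6.45 and 6.01, had a limma adjusted p of 0.0124, but of 0.0723 when mESC replicate 1 was left out and 0.0716 when Nanog PGCLC replicate 2 was. Ct55, at 6.96 and 6.41, had a limma adjusted p of 0.0272, which became 0.0756, 0.0729 and 0.122 without mESC replicate 1, mESC replicate 2 and Nanog PGCLC replicate 2. The count of 8 lower members fell to 5 without mESC replicate 1.

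**Figure D4:**
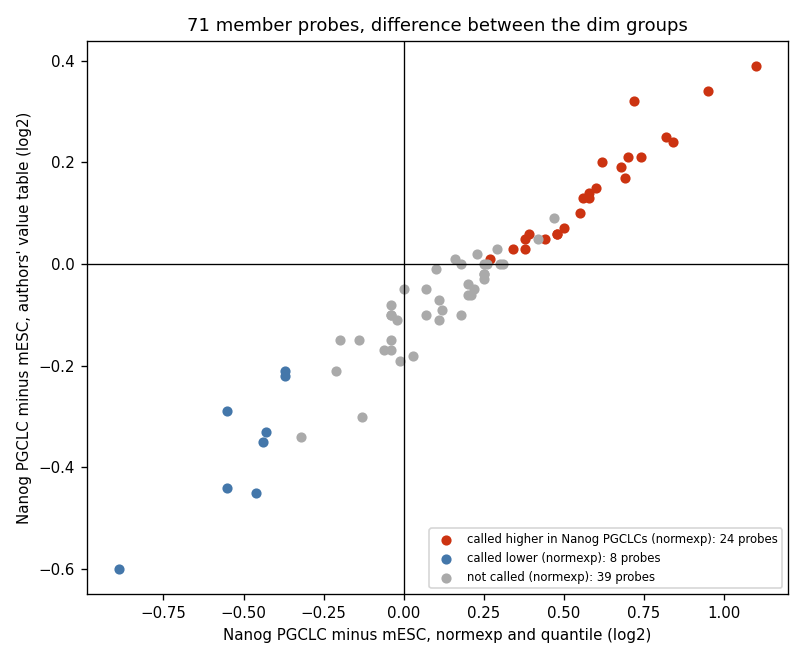
Difference between Nanog PGCLC and mESC means (log2) for the 71 member probes, after background correction and quantile normalization (horizontal axis) and in the authors' value table (vertical axis). Red points (24) were called higher, blue points (8) lower and grey points (39) not called by limma on the corrected values, and more points lie above 0 on the horizontal axis (49) than on the vertical one (31).

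The plot of both scales shows the points shifted to the right along an otherwise common line, so that genes at the ends keep their sign. Over all probes tested, 26.5% were higher in Nanog PGCLCs than in mESCs and 25.1% were lower. Of 28 further probes of the member genes that were tested, 12 were higher, 7 were lower and 9 did not pass. Several of the higher ones, such as those of Bbx, G2e3 and Jak3, were as dim as the members and undetected in mESCs. Of the 18 further probes detected on all 6 arrays, 6 were higher, 5 lower and 7 did not pass, where 21.7% and 26.8% of all probes detected on all 6 arrays were higher and lower. The further probe of Peg3 was higher by 1.61 ± 0.09 (log2, SE, 2 arrays per group, limma adjusted p = 7.98e-06), and one of Nsd2 by 1.06 ± 0.13 (limma adjusted p = 0.00033). The other further probe of Nsd2, undetected in mESCs, did not pass, with 0.22 ± 0.14 (limma adjusted p = 0.221). The further probe of Lhpp fell by 1.20 ± 0.10 on the same scale (limma adjusted p = 4.6e-05). The further probes of Wwc2 did not pass, with differences of -0.07 ± 0.09 and 0.23 ± 0.09 (limma adjusted p = 0.55 and 0.0771), unlike its member probe.

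Lists of pathway and cell type genes set the members beside other genes. Of 334 genes on 14 lists, 103 had a named probe in the value table, 4 of them members (Cxcl12, Wnt5a, Tbx4 and Grhl3), and 89 others were tested. Between cytokine and Nanog PGCLCs, 39 of the 89 were higher in cytokine PGCLCs by limma at an adjusted p below 0.05, 9 were lower and 41 did not pass, against 9.72% higher and 10.4% lower of all probes tested. Their median difference was 0.29 (log2), and that of all probes 0.01. The 89 include Id1, Id2, Id3, Msx1, Cdx2, Hba-x, Hbb-y and Hbb-bh1, detected on the cytokine arrays only and left out by symbol. Hoxd8, Col5a1 and Dab2, of the Hox, fibroblast and mesenchyme, and endoderm lists, were also detected on the cytokine arrays only by the probe read. The higher calls of all these genes were favoured or nearly fixed by that pattern, so counts and medians with them are a description. Without cytokine PGCLC replicate 1 the counts fell to 24 higher and 4 lower, and without replicate 2 to 23 and 4. Without Nanog PGCLC replicate 1 or 2, 4 and 5 genes were lower. Each gene named below as higher or lower passed under every setting tried, except where stated.

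**Figure D5:**
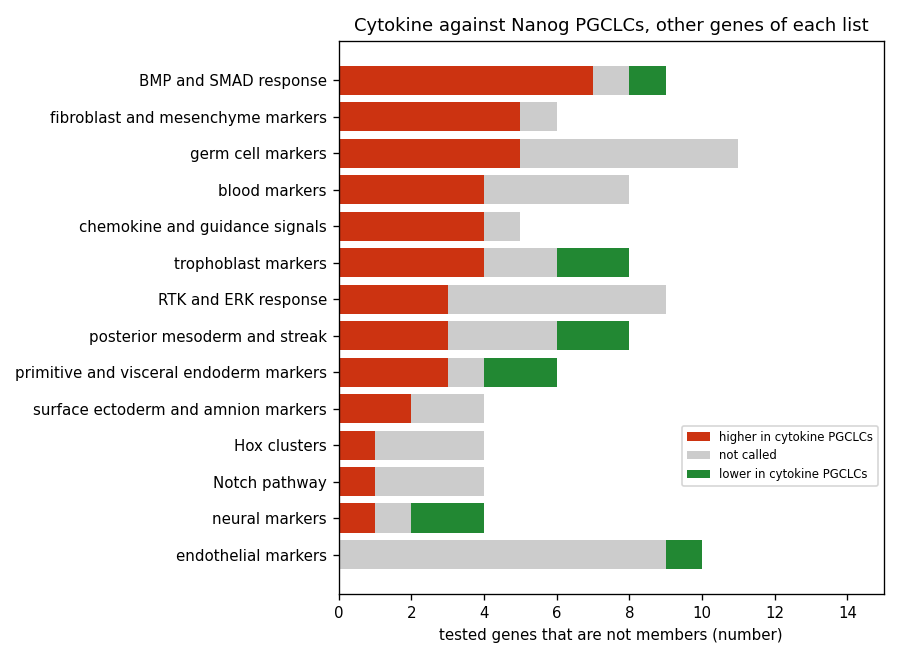
Number of tested genes per list (horizontal axis), members left out, that were higher (red), lower (green) or not called (grey) in cytokine against Nanog PGCLCs by limma at an adjusted p below 0.05. The BMP and SMAD list has 7 of 9 genes higher, among them the left-out Id1, Id2, Id3 and Msx1. The endothelial list has none higher and 9 of 10 not called.

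Of the BMP and SMAD response genes, 7 of 9 were higher in cytokine PGCLCs and 1 was lower, with a median difference of 1.87. Id1, an inhibitor of helix-loop-helix factors and a direct BMP target, had normalized log2 levels of 6.08 and 6.13 for mESCs, then 10.23 and 10.21 for cytokine PGCLCs, then 6.83 and 6.80 for Nanog PGCLCs. It was at least 10.0-fold higher in cytokine than in Nanog PGCLCs (limma adjusted p = 1.52e-06). Its relatives Id2 and Id3 were at least 1.63-fold and 2.25-fold higher, and the homeobox gene Msx1 at least 2.70-fold. Id1, Id2, Id3 and Msx1 fit the detection pattern of the members and are among the symbols the rule left out. Their higher calls were thus nearly fixed beforehand. The gene for the ligand BMP4 itself was lower in cytokine PGCLCs, by a difference of -0.75 ± 0.09 (log2, SE, 2 arrays per group).

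Of the posterior mesoderm and streak genes other than Wnt5a and Tbx4, 3 of 8 were higher and 2 lower, with a median of 0.19. Cdx2, a posterior homeobox gene and another symbol the rule left out, was at least 3.01-fold higher in cytokine PGCLCs. Evx1, a streak factor, was higher by 1.82 ± 0.10 (log2). Its mean levels were 8.97, 9.27 and 7.45 in mESCs, cytokine PGCLCs and Nanog PGCLCs. Wnt3a, a canonical WNT ligand of the streak, was at least 2.11-fold higher in Nanog PGCLCs, opposite to the member Wnt5a. Only 1 of 4 tested Hox genes was called, and of the Notch pathway genes 1 of 4 was higher, the target gene Hey1 by 1.69 ± 0.09 (log2).

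Among chemokine and guidance genes, beside the member Cxcl12, 4 of 5 were higher and none was lower, with a median of 0.83. The netrin receptor Unc5b was higher by 1.78 ± 0.20, the Slit receptor Robo1 by 1.02 ± 0.11 and the ephrin Efnb1 by 0.83 ± 0.12 (log2, SE, 2 arrays per group). Of the receptor kinase and ERK genes 3 of 9 were higher, with a median of -0.07. One of them was Kit, the receptor of the SCF given to these cells, higher by 0.69 ± 0.10. Of the germ cell markers 5 of 11 were higher and none was lower, with a median of 0.16. These included the RNA-binding proteins Dnd1, by 0.99 ± 0.09, and Nanos3, by 0.83 ± 0.10.

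Markers of other cell types did not all move the same way, and their part in the members' values was not tested. Of 8 blood markers tested, 4 were higher in cytokine than in Nanog PGCLCs and none was lower, with a median of 2.35. The embryonic globins Hba-x, Hbb-y and Hbb-bh1 were at least 3.95-fold, 4.09-fold and 5.75-fold higher and were undetected in both other groups. These globins are also among the symbols the rule left out, so the median of this list is a description. The summed linear signal of the 8 listed blood markers was 4190 and 4330 in cytokine PGCLCs, 1430 and 1520 in Nanog PGCLCs, and 5940 and 3210 in mESCs. The adult globin Hba-a1, with log2 levels of 11.42 and 6.36 in mESC replicates 1 and 2, stood apart on the first of these arrays. Much of the mESC sums also came from Laptm5, at 11.29 and 11.23, so the mESC sums say little of the other markers. The other 17 of 25 blood markers, among them Tal1, Gata1 and Runx1, had no named probe in the value table. Absence from that table, here and for the lists below, does not show that a gene was silent.

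For surface ectoderm, 2 of 4 tested markers were higher (Krt8 by 1.25 ± 0.11 and Tfap2a by 0.94 ± 0.12, log2). Mean levels of Tfap2a were 8.12, 7.91 and 6.97 in mESCs, cytokine and Nanog PGCLCs. The listed markers, Grhl3 included, summed to 1290 and 1380 in cytokine PGCLCs, 918 and 945 in Nanog PGCLCs, and 1010 and 1050 in mESCs. The other 11 of 18, Trp63 and Krt5 among them, had no named probe in the value table. Of 6 fibroblast and mesenchyme markers 5 were higher, and Vim, which was brightest in mESCs, was at least 1.61-fold higher in cytokine than in Nanog PGCLCs. Fn1, Col6a2 and Col5a1, also among the 5, did not pass under every setting tried. Col5a1 was detected on the cytokine arrays only. The listed fibroblast and mesenchyme markers summed to 2060 and 2180 in cytokine PGCLCs, 1540 and 1600 in Nanog PGCLCs, and 2360 and 2520 in mESCs. For 19 of 26 markers, Col1a1 and Twist2 included, the value table held no named probe. In the endoderm list 3 of 6 genes were higher and 2 lower, with Sparc higher by 1.62 ± 0.09 (log2) and Apoa2 at least 1.47-fold higher in Nanog PGCLCs. Both genes were brightest in mESCs, and Sparc had mean levels of 10.35, 9.30 and 7.68 in mESCs, cytokine and Nanog PGCLCs. Sums for endoderm ranged from 3200 to 3220 in cytokine PGCLCs, 2940 to 3050 in Nanog PGCLCs and 4290 to 4580 in mESCs. Here 19 of 25 markers, with Gata4 and Sox17 among them, had no named probe in the value table.

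Of 8 trophoblast markers 4 were higher and 2 lower. Their sums were 8660 to 8770 in cytokine PGCLCs, just under the overlapping ranges of Nanog PGCLCs (8870 to 9560) and mESCs (8890 to 9340). Most of these sums came from Esrrb, at mean log2 levels of 12.79, 12.68 and 12.84 in mESCs, cytokine and Nanog PGCLCs. The sums thus say little of the other markers. For 15 of 23 markers, Elf5 and Hand1 included, the value table held no named probe. Of 10 endothelial markers 9 did not pass and 1 was lower, with sums of 3140 to 3300, 3500 to 3640 and 3570 to 3690 in cytokine PGCLCs, Nanog PGCLCs and mESCs. No named probe was in the value table for 14 of 24, Cdh5 among them. Of 4 neural markers 1 was higher and 2 were lower, and the sums in the same order, 632 to 652, 792 to 838 and 1710 to 1780, were highest in mESCs. Among neural markers, 14 of 18, Sox1 and Pax6 included, had no named probe in the value table.

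The 67 genes lay on 19 chromosomes, with 9 on chromosome 7 (13.4%, against 7.84% of the named genes in the value table), 8 on chromosome 4 (11.9% against 6.59%) and 6 on chromosome 5 (8.96% against 6.62%). These shares were not tested. Grhl3 and Ifnlr1 are adjacent on chromosome 4, with 0 protein-coding genes between them. Pramel37 and Pramel39 on chromosome 5 have 2 between them, as do Mbd1 and Acaa2 on chromosome 18. Further pairs were Nsd2 and Mxd4 (6 between them) and Mxd4 and Rgs12 (12) on chromosome 5, Dst and Fam168b (8) on chromosome 1, and Gm13040 and Pramel16 (10) on chromosome 4.

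RefSeq promoter windows were found for 50 of the 67 genes (69 windows, since some genes have several starts). Their median GC content was 59.0%, against 60.7% over the 5610 named genes tested that had a window and 52.7% over all genes of the table. The ratio of observed to expected CpG had a median of 0.639, against 0.78 and 0.384. Exact matches were searched on both strands. TATAAA was found in 15.9% of member windows, 7.3% of windows of tested genes and 13.6% of all. The shares for CAGCTG were 23.2%, 14.1% and 16.3%, and for CTTTGAT 8.7%, 2.62% and 3.73%. These are shares of windows, and several CAGCTG windows belong to Prxl2a and Thsd4. The CTTTGAT windows include those of the related Pramel16, Pramel37 and Pramel39. GGCGCC, at 13.0%, was less frequent than among tested genes (21.2%) and near the share of all (11.9%). CACCTG (17.4%, 17.8% and 20.2%), AGATAA of GATA factors (5.8%, 6.0% and 11.2%) and TTCNNNGAA of STAT factors (5.8%, 6.83% and 8.3%) were close to the tested genes. The SMAD palindrome GTCTAGAC was in 0 of the 69 member windows and in 0.265% of those of tested genes. These shares describe letters in short windows and were not tested.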

How the data were processed

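Total RNA of 6 samples, 2 per group as labelled, was turned into biotinylated cRNA and hybridised to Illumina mouse BeadChips, per the labels' protocols. The deposited intensity of a probe is a linear scanner value with, judging by its range, no background correction or normalization. Each deposited detection p-value ranks a probe against negative control beads, as the file headers and values show. The authors' deposited value table holds log2 values for 11542 probes and, from the values, was quantile normalized. How its background was treated is unknown. The submitters' processing notes name limma.

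The raw intensities were background corrected here by normexp (limma 3.58.1, R 4.3.3), with control levels derived from the p-values of detection (936 controls implied, offset 16), followed by quantile normalization and log2. Probes detected (p below 0.01) on 2 or more arrays, 10673 in all, were fitted in 1 model of 3 groups (lmFit and eBayes, 3 residual and 4.92 prior degrees of freedom), two-sided, and called at a Benjamini-Hochberg adjusted p below 0.05. Bounds written as "at least" compare the mean of the brighter group with a floor, which is on each array the dimmest detected signal or, if higher, the probe's own signal. List genes were read by their brightest named probe. The workflow was tested on simulated data.

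Of the value table's probes, 10057 had 1 symbol in the platform annotation, 4 several and 1481 none. All 67 member genes matched RefSeq by Entrez identifier. Promoter sequences are from RefSeq, build GRCm38.p6, and no genome was used here. Members and lists were chosen with earlier results of these data known. Array values are given for the 30 members with the largest gap, members on a list, those nearest the size limit, up to 6 per direction called between Nanog PGCLCs and mESCs, those with 2 member probes, and up to 4 other genes per list by adjusted p. Values given for other members, further probes, Hba-a1 and probes near the detection limit were chosen after they were seen, and Gata2, counted in 2 lists, is one of several genes on more than 1 list. Other background corrections, scalings, filters, a variance trend, a replicate block and leaving out each array were tried. Replicate numbers did not pair the samples, with correlations of replicate differences between groups of 0.0015 to 0.076.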

Additional observations from a re-analysis of the deposited data

Results flagged for a closer look

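Outside the named genes, 18 of the 33 unnamed probes detected on both cytokine PGCLC arrays and on no other array also lay 0.2 or more above each other group mean. They drew attention because they carry the same signal as the members but could not be tied to a gene here. Their gaps ranged from 0.21 to 0.51 (log2, authors' value table), and none reached that of Cxcl12 or Sct.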

How the results depend on the processing

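Of members called between Nanog PGCLCs and mESCs, 32 in all, the authors' value table gave 21 (8 higher and 13 lower, against 24 and 8). Fewer lower calls, 5, came from median scaling and from testing all probes without a filter. The cause was not tested. Median scaling also moved the median difference of all probes from -0.01 to 0.21, against 0.26 for the members. Leaving out 1 array gave 26 to 32 in all, 19 to 24 higher and 5 to 8 lower. Against Nanog PGCLCs, 44 to 70 members were called, with the fewest without cytokine PGCLC replicate 2 (44) or 1 (46), and against mESCs 68 to 71. The list genes gave 27 to 49 calls, 23 to 39 higher and 4 to 10 lower, in place of 48, 39 and 9. The number of member probes, 71, became 13 with a difference of at least 0.5, 132 with no minimum difference and 116 when differences came from the corrected values. It was 66 to 105 without 1 array, a choice made after seeing the data. With a detection threshold of 0.05 it was 49, 35 of them shared with the members, and with 0.001 it was 75, 42 of them shared. With a replicate block the calls were 33 between Nanog PGCLCs and mESCs, 71 and 68 for cytokine PGCLCs against mESCs and Nanog PGCLCs, and 46 for the lists, so that it moved no count by over 1.5 times. No member was called in opposite directions by the corrected values and the value table. Fitted differences between Nanog PGCLCs and mESCs did change sign for members that were not called on the corrected values, such as Tbx4 (0.21 against -0.06) and Dnaaf3 (0.20 against -0.06), and 49 against 31 members were above 0. Median gaps over the members ranged from 0.31 without background correction to 0.83 with cyclic loess. With 2 arrays per group and probes close to background, small differences among the members could not be resolved.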
